A study of Mus musculus with 6 samples.

Results

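Solute carriers are the membrane proteins, named Slc in the mouse, that move amino acids, sugars, ions, metals, nucleosides, vitamins and mitochondrial metabolites across cell and organelle membranes. The 167 genes described here were those whose symbol is Slc followed by a family number, a letter and a member number, whose mean level was at least 1 FPKM over 6 libraries, and which were not among 13 carriers left out by name (Slc1a2, Slc1a3, Slc2a1, Slc2a3, Slc2a5, Slc2a6, Slc7a11, Slc11a1, Slc16a1, Slc16a3, Slc22a5, Slc25a20 and Slc40a1). FPKM sets the number of sequenced fragments relative to transcript length and library depth. Of 308 matching symbols in tables of 21399 genes, 295 were not left out, and 128 of these lay under 1 FPKM, none of them at 0 in all 6 libraries and 92 of them at a mean under 0.1 FPKM. The members were thus chosen by their mean FPKM over both groups, and the levels given here are a description.

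The 6 mouse libraries were 3 labelled KO (microglia from mice with a deletion) and 3 labelled WT (microglia from wild-type mice). Per the series' design text, primary microglia of either genotype, carrying the CD45.2 form of the leukocyte protein CD45, went through oxygen and glucose deprivation and then reoxygenation, and peritoneal macrophages of CD45.1 mice were added for co-culture in both groups. The text gives the CD45.1 mark to the sorted cells and calls them microglia, and each sample is labelled with both cell types. The labels name neither the deleted gene nor what drives its deletion (the series title names PPARα, a lipid-sensing nuclear receptor), give no age or length of co-culture, and do not say whether libraries came from separate cultures or animals, so a p-value here reflects no more than how far the 6 libraries scatter, and that scatter may be technical.

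Carriers of one family usually share a fold and a class of substrate, but differ in affinity, in direction of transport and in the membrane they sit in. In macrophages and lymphocytes they supply amino acids for growth and for arginine metabolism, return digested peptides, metals and heme from the lysosome, and exchange nucleotides, phosphate and cofactors across the inner mitochondrial membrane. Some amino acid exchangers reach the cell surface only with a partner chain, the product of Slc3a2.

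The reads recovered from the FPKM values summed to between 33506203 and 37137642 per library, and 162 of the 167 carriers had at least 100 reads in every library. Ppara, the gene behind the name in the title, held 13, 23 and 10 reads in KO replicates 1 to 3 and 11, 1 and 2 reads in WT replicates 1 to 3, too few to check the labels by, and KO and WT here mean the libraries so labelled. Defining microglial genes were low, with Tmem119 at 2.14 to 2.43 FPKM in KO and 0.203 to 1.04 FPKM in WT, P2ry12 at 0.457 to 1.09 FPKM in KO and 0.268 to 0.801 FPKM in WT, and Sall1 at 0 to 0.00449 FPKM in KO and 0 to 0.152 FPKM in WT. The 10 core macrophage genes all lay above 1 FPKM on average, none was at 0, and their summed level was 4429.6 to 10412 FPKM in KO and 1199 to 3528 FPKM in WT. The sum of 10 B cell genes, none at 0, was 4588 to 5024 FPKM in KO and 5248 to 5917 FPKM in WT. Neither sum overlapped between the groups, while that of 11 microglial genes did, at 109.6 to 126 FPKM in KO and 99.4 to 125 FPKM in WT. In bulk RNA, fewer cells of a type and less RNA per cell cannot be told apart. WT replicate 2 held the highest macrophage sum of the WT group and lay nearest to KO on the first principal component, which took 63.4% of the variance.

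Together the 167 carriers made up 0.602% to 0.628% of all FPKM in KO and 0.604% to 0.658% in WT. Their mean levels ran from 1.03 FPKM for Slc23a1 to 232 FPKM for Slc25a3, with a median of 6.96 FPKM against 10.7 FPKM over all genes tested. Only 3 carriers averaged 100 FPKM or more, which were the mitochondrial phosphate carrier Slc25a3, the ADP/ATP exchanger Slc25a5 and the glutamine and neutral amino acid carrier Slc1a5. In all 61 averaged at least 10 FPKM, and 22 lay under 2 FPKM. Just inside the threshold stood Slc23a1 at 1.03 FPKM, Slc6a4 at 1.09 FPKM and Slc43a1 at 1.09 FPKM, and just outside it Slc18a2 at 0.995 FPKM, Slc35f2 at 0.868 FPKM and Slc6a12 at 0.757 FPKM. Slc10a6 and Slc6a4 reached 1 FPKM in KO alone, Slc23a1, Slc25a27, Slc43a1, Slc6a19 and Slc9a5 in WT alone, and 160 in both group means. A carrier admitted by one group alone was bound to differ, so counts over the members only describe them.

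**Figure D1:**
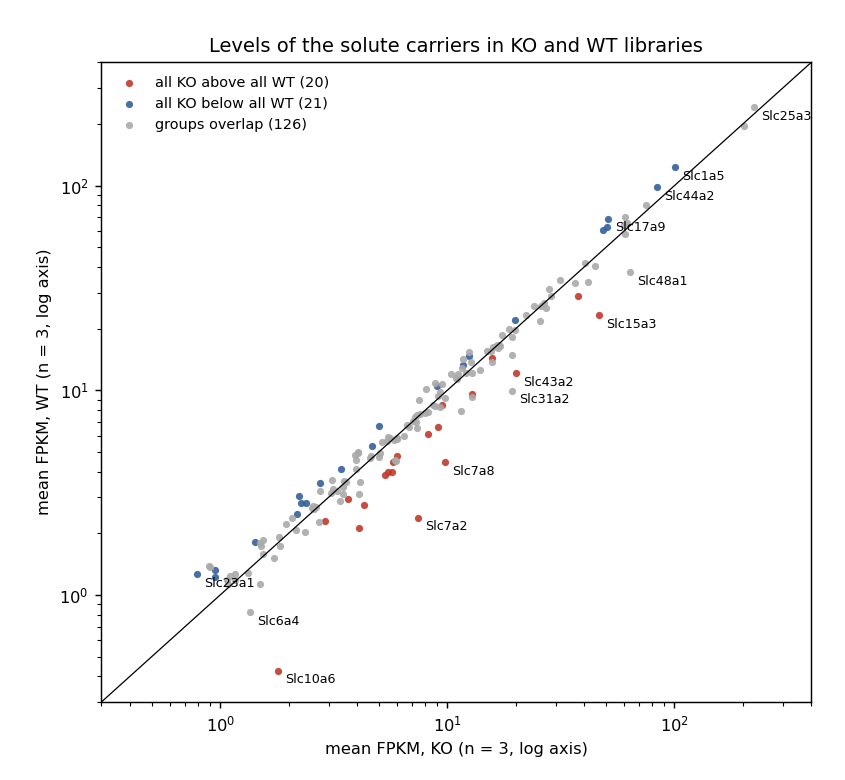
Mean FPKM of each of the 167 solute carriers in the 3 KO libraries (horizontal) and the 3 WT libraries (vertical), both on log axes, with the line of equal level. Most points lie near the line over the whole range up to 232 FPKM, and the carriers furthest from it, Slc10a6, Slc7a2, Slc7a8 and Slc15a3, lie on the KO side.

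Setting KO against WT tests which carriers differed by microglial genotype. No carrier passed limma's test adjusted over all 10732 genes tested at 0.05, either higher or lower, against 3 genes (0.0280%) higher and 0 (0%) lower among all genes tested, and a voom fit in limma to the recovered whole reads called none either. At an unadjusted limma p under 0.05, 20 carriers were higher in KO and 10 lower, which is 12% and 5.99% of the 167, beside 8.86% and 8.21% of all genes tested. The KO values did not overlap the WT values for 20 carriers on the higher side and 21 on the lower side, or 12% and 12.6%, beside 9.75% and 15.2% of all genes tested. These shares lie near the background and say nothing particular of the carriers as a family. Their median log2 fold change was -0.02, against -0.06 over all genes tested, on log2(FPKM + 1), a scale that understates the change of low genes. The split of 20 against 10 at the unadjusted threshold was 25 against 6 with median-of-ratios scaling and 16 against 13 when totals were equalised after setting aside mitochondrial and ribosomal protein genes. The median over all genes tested also moved, to 0.0007 and -0.1318 under these scalings. Shares over all genes were not counted there, so these splits only describe the carriers.

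One library decided whether any carrier was called. Without WT replicate 2, limma called 7 carriers higher in KO (4.19%, beside 4.66% of all genes tested) and 1 lower (0.599%, beside 0.354%). Those higher were Slc43a2, Slc7a8, Slc7a2, Slc10a6, Slc39a14, Slc35f6 and Slc31a2, and the one lower was Slc15a2. Their adjusted limma p-values in that fit ran from 0.0097 for Slc43a2 to 0.043 for Slc15a2. Without that library 43 carriers did not overlap on each side, beside 18.4% higher and 31.8% lower of all genes tested. At the unadjusted threshold 13 carriers were higher and 4 lower without KO replicate 1 (beside 6.31% and 3.28% of all genes tested), and 15 were higher and 6 lower without WT replicate 3 (beside 6.61% and 5.01%). The count not overlapping was 32 on the higher side without KO replicate 3 (beside 13.1% of all genes tested) and 33 on the lower side without WT replicate 1 (beside 23.7%).

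The carriers that separated the groups also followed an order among libraries. On the first principal component over all genes tested, KO replicate 1 (-28.98) and WT replicate 3 (30.57) were the extremes. Within KO, replicate 3 (-6.92) lay nearest to WT there. The order was thus not particular to the carriers, and its share over all genes was not counted. Of the 20 higher in KO without overlap, 11 were highest in KO replicate 1 within KO, 15 were lowest in KO replicate 3 within KO, and 15 were lowest in WT replicate 3 within WT. Core macrophage genes had these extremes too. Their sums were 10412, 5557 and 4429.6 FPKM in KO replicates 1 to 3. In WT replicates 1 to 3 they were 1685, 3528 and 1199 FPKM. The highest WT sum was in replicate 2, while only 9 of the 20 carriers were highest there within WT. A further 8 were highest in WT replicate 1 and 3 in WT replicate 3. Of the 21 lower in KO without overlap, 16 were lowest in KO replicate 1 within KO and 15 were highest in WT replicate 3 within WT. A fit with the mean log2 level of the 10 core macrophage genes as a covariate gave 10 carriers higher and 4 lower at the unadjusted threshold, of which 2 (Slc43a2 and Slc25a30) were among the 20 higher without the covariate and 1 (Slc25a22) among the 10 lower. The others were different carriers, and no share over all genes tested was counted for this fit. The summed level of these marker genes did not overlap between the groups, so the covariate goes largely with the KO and WT labels. In that fit marker level and group cannot be told apart, and the fold changes given with the covariate only describe the fit.

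**Figure D2:**
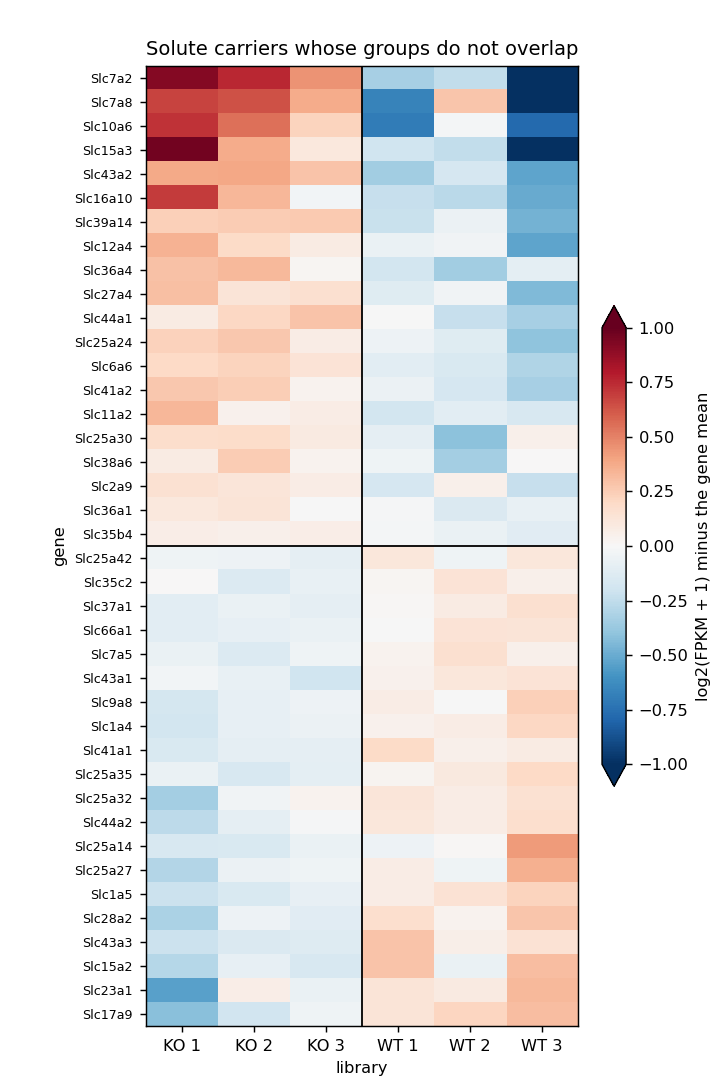
Values of carriers whose KO and WT libraries did not overlap, as log2(FPKM + 1) minus the mean of the gene over 6 libraries, with KO libraries on the left. The upper 20 genes are higher in KO and the rest lower, with the strongest colours in KO replicate 1 and WT replicate 3 and paler ones in KO replicate 3.

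Sequences upstream of 5 carriers are shown. They were picked by hand from the 15 higher and 12 lower carriers that separated the groups and have a promoter window. The windows come from RefSeq's table for GRCm38.p6, the assembly of mm10. The 5 are no neutral sample, so how many of them hold a motif says nothing of the rest. Each sequence is the 250 bases before the listed start, 5′ to 3′ on the strand of the gene. Capitals mark a match to 1 of 5 motifs. The motifs, read on both strands, were the E-box CACGTG, the PU.1-type site GAGGAAGT, the amino acid response element TGATGNAA, the antioxidant response core TGACNNNGC and the PPAR direct repeat, AGGTCA and AGGTCA with 1 base between. Matches to the E-box and the antioxidant core can overlap, as they did in 74 of 32851 windows. Slc43a2 (the first of 2 windows listed, chr11:75531444-75531693, plus strand), Slc7a8 (chr14:54781887-54782136, minus strand), Slc41a2 (chr10:83337818-83338067, minus strand) and Slc12a4 (chr8:105966116-105966365, minus strand) had all KO libraries above WT, and Slc28a2 (chr2:122426185-122426434, plus strand) had all KO libraries below WT.
Slc43a2: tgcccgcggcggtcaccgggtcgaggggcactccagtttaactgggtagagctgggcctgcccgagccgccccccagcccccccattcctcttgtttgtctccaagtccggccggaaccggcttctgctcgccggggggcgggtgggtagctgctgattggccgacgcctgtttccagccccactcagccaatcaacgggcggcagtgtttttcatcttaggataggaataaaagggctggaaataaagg
Slc7a8: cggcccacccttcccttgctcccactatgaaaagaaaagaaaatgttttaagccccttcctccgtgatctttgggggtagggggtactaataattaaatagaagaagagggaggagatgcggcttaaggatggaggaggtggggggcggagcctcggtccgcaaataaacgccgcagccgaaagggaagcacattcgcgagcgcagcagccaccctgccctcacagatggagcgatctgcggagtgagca
Slc41a2: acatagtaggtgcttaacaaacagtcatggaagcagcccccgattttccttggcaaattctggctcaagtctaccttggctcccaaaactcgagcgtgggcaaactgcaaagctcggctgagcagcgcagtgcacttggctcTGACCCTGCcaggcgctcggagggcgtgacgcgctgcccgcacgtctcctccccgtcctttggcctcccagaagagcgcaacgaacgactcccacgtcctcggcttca
Slc12a4: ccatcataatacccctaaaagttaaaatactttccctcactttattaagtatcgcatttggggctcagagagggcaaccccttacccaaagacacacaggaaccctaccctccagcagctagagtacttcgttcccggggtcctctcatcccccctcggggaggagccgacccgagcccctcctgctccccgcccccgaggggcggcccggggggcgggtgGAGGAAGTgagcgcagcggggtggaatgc
Slc28a2: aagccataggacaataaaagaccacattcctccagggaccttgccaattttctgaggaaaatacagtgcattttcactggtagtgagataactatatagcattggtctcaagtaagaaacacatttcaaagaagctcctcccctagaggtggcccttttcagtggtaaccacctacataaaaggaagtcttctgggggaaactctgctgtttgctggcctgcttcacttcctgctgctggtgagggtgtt

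The letters GAGGAAGT occurred upstream of Slc12a4 and those of the antioxidant core upstream of Slc41a2, and the windows of Slc43a2, Slc7a8 and Slc28a2 held none of the 5 motifs. Of 167 carriers, 122 had a window, 166 windows in all. The E-box was found in 12.7% of these and in 6.02% of all windows, the antioxidant core in 19.3% and 10.2%, the PU.1-type site in 2.41% and 2.44%, and the amino acid response element in 3.01% and 3.45%. The PPAR direct repeat was in 0 windows of carriers and in 0.0335% of all windows. Among all 122 carriers with a window, 15 were higher and 12 lower in KO without overlap. Of the 20 carrier genes with an E-box, 1 was higher and 2 lower, and of the 28 with an antioxidant core, 1 (Slc41a2) was higher and 2 lower. Of the 4 with a PU.1-type site, 1 (Slc12a4) was higher and 0 lower. Of the 4 with an amino acid response element, 0 were higher and 0 lower. A match here describes letters in this window and shows no binding.

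Carriers of amino acids, peptides, taurine and creatine held the widest differences. Of 29 such genes, 9 were higher in KO and 6 lower without overlap, beside 9.75% and 15.2% of all genes tested. At the unadjusted limma threshold 8 were higher and 2 lower, beside 8.86% and 8.21%, and 0 passed the adjusted one. Their median absolute log2 fold change was 0.22, against 0.13 over all genes tested. The median itself was 0.07, and between 0.00 and 0.14 under the other scalings.

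Slc43a2 encodes LAT4, a sodium-independent carrier of branched-chain amino acids and phenylalanine, and lies on the plus strand of chromosome 11 from 75531694 to 75577575 (mm10, GENCODE M21). Its level was 20.5, 20.6 and 19.2 FPKM in KO replicates 1 to 3, against 12, 13.7 and 10.5 FPKM in WT replicates 1 to 3. All KO libraries lay above all WT libraries and the spread within each group was small. The means were 20.1 ± 0.807 FPKM in KO and 12.1 ± 1.60 FPKM in WT (SD, n = 3 each), a 1.67-fold difference with a log2 fold change of 0.70 (SE 0.11) and the smallest limma p of any carrier, at an adjusted p = 0.077. The log2 fold change was 0.38 with the core macrophage covariate, and adjusted limma p-values ran from 0.0097 to 0.46 over all settings tried.

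Slc7a2 encodes CAT2, a carrier of arginine and other cationic amino acids known for feeding arginine to nitric oxide synthase and arginase in macrophages, and lies on the plus strand of chromosome 8 from 40862396 to 40922308. It stood at 8.71, 7.64 and 6.00 FPKM in KO replicates 1 to 3, against 3.09, 3.32 and 0.770 FPKM in WT replicates 1 to 3. The groups did not overlap, and WT replicate 3 was far below the rest. The adjusted limma p was 0.12, and the log2 fold change was 1.41 (SE 0.33), the largest among the carriers on log2(FPKM + 1). It was 0.20 with the core macrophage covariate.

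Slc7a8 encodes LAT2, a neutral amino acid exchanger that needs the Slc3a2 chain. Its level was 10.6, 10.3 and 8.42 FPKM in KO replicates 1 to 3, against 3.57, 7.80 and 1.96 FPKM in WT replicates 1 to 3. WT replicate 2 came close to the lowest KO library, and the adjusted limma p was 0.19 with all libraries, 0.01 without WT replicate 2. Its promoter window, printed before, held no motif searched. The log2 fold change was 1.13 (SE 0.35) with all libraries and -0.27 with the core macrophage covariate. Slc3a2 itself, the partner chain also called CD98 heavy chain, had 20.7, 19.5 and 17.5 FPKM in KO, against 14.3, 18.4 and 11.6 FPKM in WT, and the groups overlapped.

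Peptide carriers differed among themselves. Slc15a3, a lysosomal carrier of histidine and small peptides, stood at 63.2, 41.5 and 34.5 FPKM in KO replicates 1 to 3, against 27.6, 26.8 and 15.5 FPKM in WT replicates 1 to 3. Its log2 fold change was 0.96 (SE 0.27) with an adjusted limma p of 0.16, and it was -0.04 with the core macrophage covariate. Slc15a4, the second lysosomal histidine and peptide carrier, was nearly level, at 17.4 ± 0.101 FPKM in KO and 18.7 ± 1.31 FPKM in WT (SD, n = 3 each). Slc15a2, the plasma membrane peptide carrier PEPT2, had 4.55, 5.38 and 5.06 FPKM in KO, against 7.23, 5.45 and 7.36 FPKM in WT, so that all KO libraries lay below all WT libraries, WT replicate 2 by little. Exon sequence of Slc15a3 overlaps the protein-coding gene Tmem132a in GENCODE M21, and without a stated strand setting the reads of that stretch cannot be told apart. Over all carriers, 20 share exon sequence with a protein-coding gene and 50 with a gene of any kind, among them Slc43a2 with Gm45606, Slc7a2 with Gm26584, Slc12a4 with Gm16156, Slc11a2 with Gm5475 and Slc25a35 with Rangrf.

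Further amino acid carriers had all KO libraries above WT. Slc16a10, which carries aromatic amino acids although it belongs to the monocarboxylate family, had 5.38, 3.96 and 2.86 FPKM in KO, against 2.35, 2.26 and 1.78 FPKM in WT. Slc36a4, a proton-assisted amino acid carrier, averaged 5.69 ± 0.734 FPKM in KO and 3.98 ± 0.430 FPKM in WT (SD, n = 3 each). Slc6a6, the taurine carrier, had 38.0, 38.6 and 36.3 FPKM in KO, against 30.6, 29.5 and 26.6 FPKM in WT, with little spread in either group. Adjusted limma p-values were 0.15 for Slc16a10, 0.15 for Slc36a4 and 0.12 for Slc6a6. With the core macrophage covariate the log2 fold change of Slc16a10 was 0.14, of Slc36a4 0.51 and of Slc6a6 0.24, against 0.67, 0.42 and 0.37 without it.

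On the other side stood Slc1a5, the carrier ASCT2 that brings glutamine into dividing cells. It was the most abundant amino acid carrier in all libraries, at 95.8, 100.1 and 105 FPKM in KO replicates 1 to 3, against 117, 123 and 129.7 FPKM in WT replicates 1 to 3. The groups did not overlap, the log2 fold change was -0.30 (SE 0.08) and the adjusted limma p was 0.15. Slc7a5, the essential amino acid exchanger LAT1, averaged 11.7 ± 0.385 FPKM in KO and 13.3 ± 0.673 FPKM in WT (SD, n = 3 each). Slc38a2, a sodium-coupled neutral amino acid carrier, was abundant but overlapped between groups, at 59.9 ± 4.14 FPKM in KO and 64.1 ± 10.2 FPKM in WT (SD, n = 3 each). Slc43a1, a close relative of Slc43a2 also known as LAT3, had 1.04, 0.983 and 0.819 FPKM in KO, against 1.15, 1.26 and 1.29 FPKM in WT. The other 13 genes of this class had log2 fold changes from -0.33 to 0.25 and adjusted limma p-values of at least 0.34.

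**Figure D3:**
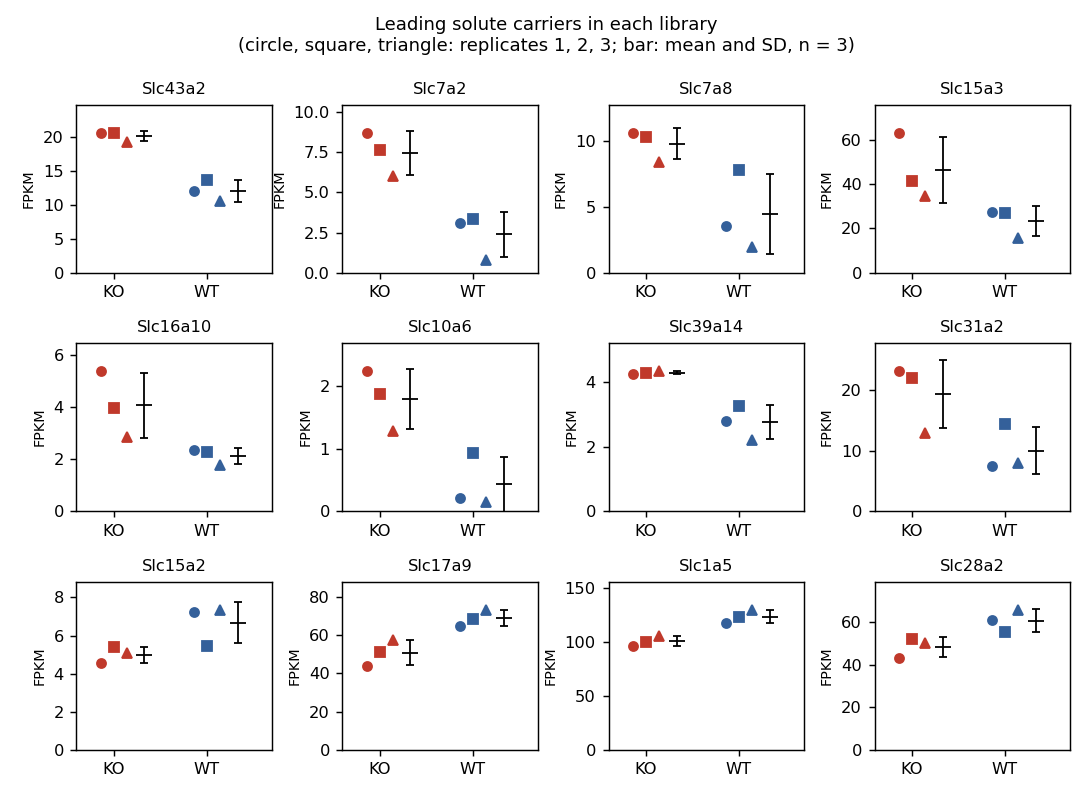
FPKM of 12 solute carriers in each library, KO on the left and WT on the right of every panel, with replicates 1 to 3 as circle, square and triangle and the mean and SD (n = 3) beside them. All panels but Slc31a2 show groups that do not overlap, with the upper 8 genes higher in KO and the last row (Slc15a2, Slc17a9, Slc1a5 and Slc28a2) lower.

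Levels of relatives within a family can also be set against each other as a ratio of FPKM within each library, which needs no scaling between libraries. These pairs were picked after the values were seen and so carry no test. The ratio of Slc43a2 to Slc43a1 was 19.7, 20.9 and 23.4 in KO replicates 1 to 3, against 10.4, 10.8 and 8.12 in WT replicates 1 to 3. For Slc7a8 over Slc7a5, exchangers that share the Slc3a2 chain, it was 0.896, 0.911 and 0.699 in KO, against 0.278, 0.554 and 0.150 in WT. LAT2 thus stood closer to LAT1 in the KO libraries than in any WT library. The ratio of Slc7a2 to Slc7a1, which encodes the widely expressed cationic amino acid carrier CAT1, was 0.892, 0.646 and 0.460 in KO, against 0.225, 0.286 and 0.0577 in WT. Slc7a1 itself overlapped between the groups, at 9.77, 11.8 and 13.1 FPKM in KO and 13.7, 11.6 and 13.4 FPKM in WT, so that ratio follows Slc7a2. Slc15a3 exceeded Slc15a2 by 13.9, 7.70 and 6.83 times in KO and by 3.81, 4.91 and 2.11 times in WT. None of these 4 ratios overlapped between the groups. For Slc43a2, Slc7a8 and Slc15a3 this was fixed by the levels, as each was higher in KO without overlap and its relative lower. These ratios restate the levels and add no separate result.

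Of 22 carriers of zinc, copper, iron and magnesium, 3 were higher in KO and 1 lower without overlap, beside 9.75% and 15.2% of all genes tested. At the unadjusted limma threshold 4 were higher and 1 lower, beside 8.86% and 8.21%, and 0 passed the adjusted one. The median log2 fold change was 0.06, and -0.02 under the scaling that sets mitochondrial and ribosomal protein genes aside. Slc39a14, which encodes the zinc and iron importer ZIP14, had 4.25, 4.29 and 4.34 FPKM in KO replicates 1 to 3, against 2.80, 3.27 and 2.21 FPKM in WT replicates 1 to 3. The KO libraries were nearly equal and all lay above WT, with a log2 fold change of 0.50 (SE 0.12) and an adjusted limma p of 0.12. It was 0.19 with the core macrophage covariate.

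Slc11a2, the proton-coupled iron carrier DMT1, averaged 5.76 ± 0.773 FPKM in KO and 4.47 ± 0.154 FPKM in WT (SD, n = 3 each), without overlap and with an adjusted limma p of 0.22. The copper carriers differed in degree. Slc31a2, the low-affinity copper carrier CTR2 of late endosomes and lysosomes, had 23.1, 22.0 and 12.9 FPKM in KO, against 7.45, 14.4 and 8.02 FPKM in WT, so that KO replicate 3 lay below WT replicate 2. Slc31a1, the high-affinity copper importer CTR1, had 15.7, 12.2 and 10.8 FPKM in KO, against 9.62, 11.5 and 6.86 FPKM in WT, and also overlapped. Both log2 fold changes, 0.90 and 0.44, were negative with the core macrophage covariate, at -0.10 and -0.34.

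Magnesium carriers went both ways. Slc41a2 had 8.77, 8.60 and 7.31 FPKM in KO replicates 1 to 3, against 6.79, 6.23 and 5.45 FPKM in WT replicates 1 to 3, while Slc41a1 had 12.1, 12.7 and 12.7 FPKM in KO, against 15.6, 14.1 and 14.4 FPKM in WT. Neither gene overlapped between the groups, with adjusted limma p-values of 0.17 and 0.24. The ratio of Slc41a2 to Slc41a1 was 0.576 to 0.722 in KO and 0.379 to 0.441 in WT, a gap fixed by the levels of both genes. Slc39a7, which releases zinc from the endoplasmic reticulum and was the most abundant metal carrier, averaged 60.5 ± 7.12 FPKM in KO and 57.9 ± 7.07 FPKM in WT (SD, n = 3 each), a difference within the spread. The 15 metal carriers not named here had log2 fold changes from -0.13 to 0.30.

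Carriers of the SLC25 family, most of them of the inner mitochondrial membrane, formed the largest class. They made up 33.4% to 34.2% of the FPKM of all carriers in KO and 33.9% to 35.8% in WT. Of 35 genes, 2 were higher in KO and 6 lower without overlap, beside 9.75% and 15.2% of all genes tested. At the unadjusted limma threshold 2 were higher and 3 lower, beside 8.86% and 8.21%, and 0 passed the adjusted one. Their median absolute log2 fold change was 0.11, so most differed little. The median was -0.05, and 0.01 with median-of-ratios scaling. Slc25a3, which brings phosphate in for ATP synthesis, averaged 223 ± 6.51 FPKM in KO and 241 ± 17.6 FPKM in WT (SD, n = 3 each), and the ADP/ATP exchangers Slc25a5 and Slc25a4 averaged 203 ± 11.1 and 62.1 ± 2.98 FPKM in KO and 195 ± 19.7 and 65.5 ± 6.40 FPKM in WT. All of these overlapped between groups. Slc25a5 has a copy named Slc25a5-ps in the annotation, with which it may share reads.

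Slc25a24 and Slc25a23 encode calcium-regulated exchangers of ATP-magnesium and phosphate. Slc25a24 had 5.46, 5.64 and 4.82 FPKM in KO, against 4.32, 4.06 and 3.18 FPKM in WT, and Slc25a23 averaged 8.07 ± 1.15 FPKM in KO and 10.1 ± 0.994 FPKM in WT (SD, n = 3 each) with overlap. The ratio of Slc25a24 to Slc25a23 was 0.782, 0.709 and 0.520 in KO, against 0.479, 0.396 and 0.289 in WT. Slc25a22, a mitochondrial glutamate carrier, averaged 12.5 ± 0.761 FPKM in KO and 15.4 ± 1.86 FPKM in WT with overlap. Slc25a30 averaged 6.03 ± 0.262 FPKM in KO and 4.76 ± 0.916 FPKM in WT, and Slc25a35 averaged 2.26 ± 0.106 FPKM in KO and 2.80 ± 0.222 FPKM in WT (SD, n = 3 each), both without overlap. Slc25a37, mitoferrin-1, which brings iron in for heme synthesis, was nearly level at 40.5 ± 2.52 FPKM in KO and 41.9 ± 8.99 FPKM in WT. A further 25 carriers of the SLC25 family had log2 fold changes from -0.26 to 0.23.

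**Figure D4:**
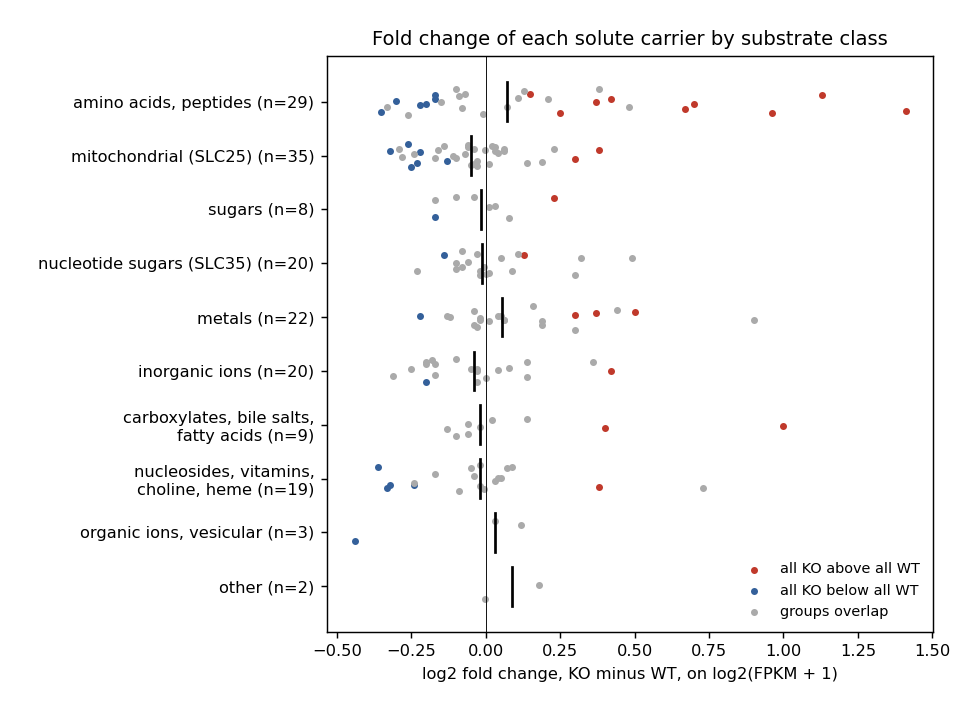
Log2 fold change (KO minus WT, on log2(FPKM + 1)) of each of the 167 carriers by substrate class, with a bar at the class median. The amino acid and peptide carriers spread from -0.35 to 1.41, while the 35 SLC25 carriers lie closer together, none above 0.38. Class medians lie between -0.05 and 0.09.

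Carriers of nucleosides, nucleobases, vitamins, choline, heme and acetyl-CoA numbered 19. Without overlap 1 was higher and 4 lower in KO, beside 9.75% and 15.2% of all genes tested. At the unadjusted limma threshold 2 were higher and 3 lower, beside 8.86% and 8.21%, and 0 passed the adjusted one. Slc28a2, a sodium-coupled importer of purine nucleosides and uridine, had 43.2, 52.2 and 50.1 FPKM in KO replicates 1 to 3, against 60.9, 55.4 and 65.9 FPKM in WT replicates 1 to 3. Slc43a3, a purine nucleobase carrier, had 2.11, 2.26 and 2.31 FPKM in KO, against 3.39, 2.76 and 3.00 FPKM in WT. Both were below WT in all KO libraries, with log2 fold changes of -0.32 and -0.33 and adjusted limma p-values of 0.2 and 0.18. With the core macrophage covariate these were -0.01 for Slc28a2 and -0.20 for Slc43a3. Slc29a3, a lysosomal nucleoside carrier, averaged 16.9 ± 0.487 FPKM in KO and 16.6 ± 2.34 FPKM in WT (SD, n = 3 each).

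Choline-like carriers again differed by relative. Slc44a1, the choline carrier CTL1, had 5.00, 5.53 and 5.92 FPKM in KO, against 4.65, 3.82 and 3.50 FPKM in WT. Slc44a2, or CTL2, was the most abundant gene of the class, at 75.2, 85.0 and 89.9 FPKM in KO, against 98.1, 95.1 and 102 FPKM in WT. The ratio of Slc44a1 to Slc44a2 was 0.0650 to 0.0665 in KO and 0.0342 to 0.0474 in WT, a gap fixed by the levels of both genes. The log2 fold change of Slc44a1 was 0.38, and 0.42 with the core macrophage covariate. Slc48a1, which exports heme from the phagolysosome, had 87.3, 56.9 and 46.6 FPKM in KO, against 34.1, 50.8 and 28.1 FPKM in WT. WT replicate 2 lay above KO replicate 3, and its log2 fold change of 0.73 was -0.38 with the core macrophage covariate. Exon sequence of Slc48a1 overlaps the protein-coding gene Hdac7. Slc23a1, a vitamin C carrier near the lower limit, held 23, 66 and 52 reads in KO and 69, 67 and 84 reads in WT.

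Among 9 carriers of carboxylates, bile salts and fatty acids, 2 were higher in KO without overlap and at the unadjusted limma threshold. That compares with 9.75% and 8.86% of all genes tested. None was lower, beside 15.2% and 8.21%, and 0 passed the adjusted threshold. Slc10a6, a carrier of sulfated steroids, held 172, 140 and 91 reads (2.24, 1.87 and 1.28 FPKM) in KO replicates 1 to 3, against 15, 69 and 10 reads (0.206, 0.932 and 0.144 FPKM) in WT replicates 1 to 3. It had the largest fold of any carrier, 4.20 between mean FPKM, and entered the set through KO alone. The log2 fold change was 1.00 (SE 0.23) with an adjusted limma p of 0.12, and it was 0.14 with the core macrophage covariate. Slc27a4, which links fatty acid uptake to acyl-CoA formation, had 13.9, 12.2 and 12.5 FPKM in KO, against 10.1, 10.8 and 7.90 FPKM in WT, with log2 fold changes of 0.40 and, with the covariate, 0.00. The other 7 genes ranged from -0.13 to 0.14.

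Of 20 carriers of bicarbonate, protons and other inorganic ions, 1 was higher and 1 lower in KO without overlap, beside 9.75% and 15.2% of all genes tested. At the unadjusted limma threshold 1 was higher and 0 lower, beside 8.86% and 8.21%, and 0 passed the adjusted one. Slc12a4, the potassium-chloride cotransporter KCC1, had 10.1, 8.94 and 8.24 FPKM in KO, against 7.32, 7.52 and 5.03 FPKM in WT, with a log2 fold change of 0.42 that was -0.09 with the core macrophage covariate. Slc9a8, a sodium-proton exchanger of endosomes and the Golgi, averaged 8.98 ± 0.451 FPKM in KO and 10.5 ± 1.02 FPKM in WT (SD, n = 3 each), below WT in all KO libraries. A further 17 genes had log2 fold changes from -0.31 to 0.36 and overlapped between groups.

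Most nucleotide sugar and related carriers of the SLC35 family differed little, with a median absolute log2 fold change of 0.09, against 0.13 over all genes tested. Of 20 genes, 1 was higher and 1 lower in KO without overlap, beside 9.75% and 15.2% of all genes tested. At the unadjusted limma threshold 1 was higher and 0 lower, beside 8.86% and 8.21%, and 0 passed the adjusted one. Slc35b4, a carrier of UDP-xylose and UDP-N-acetylglucosamine, averaged 15.8 ± 0.122 FPKM in KO and 14.4 ± 0.500 FPKM in WT, and Slc35c2 averaged 19.9 ± 1.07 FPKM in KO and 22.0 ± 0.987 FPKM in WT (SD, n = 3 each). Slc35b1, which brings ATP into the endoplasmic reticulum, was highest at 36.4 ± 4.09 FPKM in KO and 33.5 ± 2.86 FPKM in WT. Slc35f6 had 13.5, 10.8 and 10.1 FPKM in KO, against 6.58, 10.2 and 6.97 FPKM in WT, where WT replicate 2 lay just above KO replicate 3. Its log2 fold change of 0.49 was -0.11 with the core macrophage covariate. The other 16 genes had log2 fold changes from -0.23 to 0.32 and overlapped between groups.

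The 8 sugar carriers left in the set had log2 fold changes from -0.17 to 0.23. Without overlap 1 was higher and 1 lower, beside 9.75% and 15.2% of all genes tested. At the unadjusted limma threshold 0 lay in either direction, beside 8.86% higher and 8.21% lower. Slc2a9, a urate carrier of the glucose transporter family, had 3.76, 3.64 and 3.51 FPKM in KO, against 2.81, 3.42 and 2.64 FPKM in WT. Slc37a1, a glucose-6-phosphate carrier, averaged 2.39 ± 0.0420 FPKM in KO and 2.82 ± 0.195 FPKM in WT, and Slc50a1, a sugar carrier of the SWEET type and the most abundant of the 8, averaged 74.7 ± 4.16 FPKM in KO and 80.2 ± 9.15 FPKM in WT (SD, n = 3 each).

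Slc17a9 packs ATP and other nucleotides into secretory vesicles and lysosomes, from which cells release it as a signal. It stood at 44.0, 51.5 and 57.4 FPKM in KO replicates 1 to 3, against 64.9, 68.6 and 73.5 FPKM in WT replicates 1 to 3. All KO libraries lay below all WT libraries, with KO replicate 1 lowest. The log2 fold change was -0.44 (SE 0.11), the most negative among the carriers on log2(FPKM + 1), with an adjusted limma p of 0.14. With the core macrophage covariate it was -0.18. The ratio of mean FPKM, KO over WT, was 0.739, and some carriers of low level had a smaller one, among them Slc23a1 at 0.624. Of 3 genes in its class, organic ion and vesicular carriers, 0 were higher and 1 (Slc17a9) lower without overlap, beside 9.75% and 15.2% of all genes tested. At the unadjusted limma threshold 0 were higher and 1 lower, beside 8.86% and 8.21%, and 0 passed the adjusted one. The 2 genes of no assigned substrate class overlapped between the groups. Of these, Slc66a3 had 26.7 ± 1.78 FPKM in KO and 26.7 ± 0.394 FPKM in WT (SD, n = 3 each).

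Slc6a4, the serotonin transporter, placed by its family number with the amino acid carriers, held 172, 171 and 73 reads in KO replicates 1 to 3, against 1, 201 and 47 reads in WT replicates 1 to 3. The groups overlapped widely, with WT replicate 2 highest and WT replicate 1 near 0. The sum of 6 mast cell markers, none at 0 in all libraries, was 461, 468 and 107 FPKM in KO and 10.3, 558 and 253 FPKM in WT, and WT replicates 2 and 1 were its extremes too. Slc18a2, which loads serotonin and histamine into vesicles and lies just under the threshold, had 1.56, 1.40 and 0.533 FPKM in KO, against 0.0652, 1.76 and 0.657 FPKM in WT. Slc45a3 and Slc30a2, also under the threshold and named after their values were seen, were likewise lowest in WT replicate 1, at 0.0154 and 0.0158 FPKM. The part of mast cell content in these values was not tested.

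**Figure D5:**
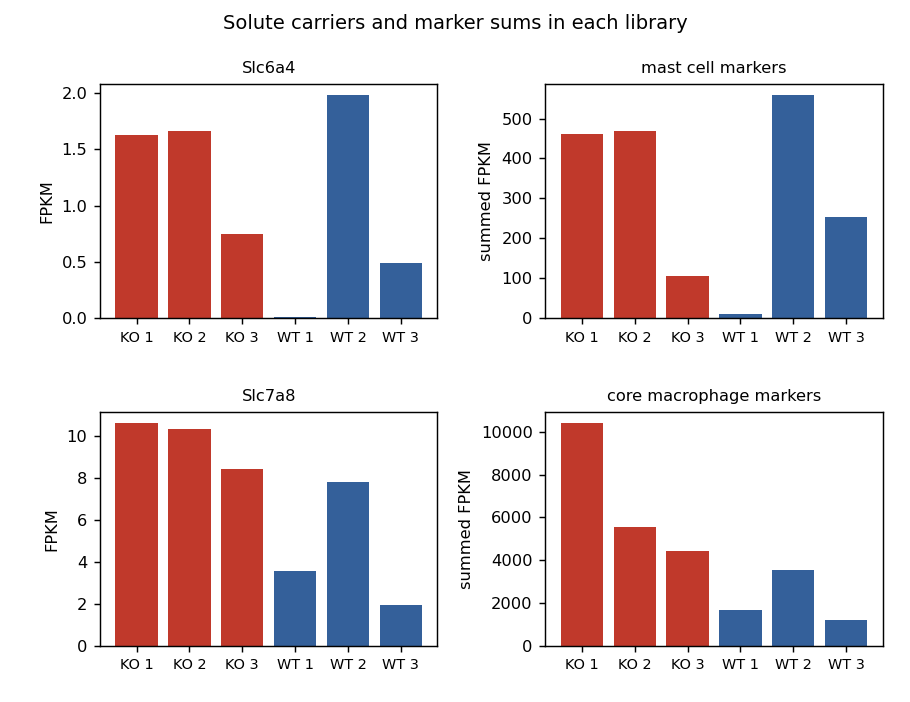
FPKM of Slc6a4 and Slc7a8 (left) and summed FPKM of 6 mast cell and 10 core macrophage markers (right) in each library, KO libraries left of WT libraries. Slc6a4 and the mast cell sum are both highest in WT replicate 2 and lowest in WT replicate 1, while Slc7a8 and the macrophage sum are both highest in KO replicate 1 and lowest in WT replicate 3.

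Carriers with symbols outside the Slc pattern gave a similar picture. Of 18 tested among 22 listed, 3 were higher and 3 lower in KO without overlap, beside 9.75% and 15.2% of all genes tested. At the unadjusted limma threshold 3 were higher and 2 lower, beside 8.86% and 8.21%, and 0 passed the adjusted one. The pyrophosphate and ATP exporter gene Ank averaged 12.4 ± 1.44 FPKM in KO and 7.18 ± 1.33 FPKM in WT, and the lysosomal carrier Mfsd1 averaged 48.2 ± 4.92 FPKM in KO and 36.3 ± 1.91 FPKM in WT (SD, n = 3 each). Adjusted limma p-values were 0.11 and 0.13. The 3 lower genes were of the Spns family. Spns1 averaged 20.2 ± 0.500 FPKM in KO and 23.8 ± 1.72 FPKM in WT. Spns2 averaged 8.91 ± 0.512 FPKM in KO and 10.7 ± 1.28 FPKM in WT. Spns3 averaged 2.41 ± 0.343 FPKM in KO and 3.33 ± 0.389 FPKM in WT. Of 13 tested partners and regulators of carriers, 1 was higher in KO without overlap, beside 9.75% of all genes tested. It was the amino acid sensing GTPase gene Rragc, at 32.9 ± 2.28 FPKM in KO and 28.1 ± 1.89 FPKM in WT.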

How the data were processed

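RNA sequencing values were deposited as one FPKM table per library, made by the authors, and the submitters' processing notes name mm10. Which aligner, counter, annotation and strand setting they used is not given in the sources used here. Whole reads could be worked back for 19328 of 19331 genes examined (99.98%, within 0.002 reads of a whole number), and library sums of these were 33506203 to 37137642. All per-sample columns were mapped, leaving 0 unused.

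Genes averaging 1 FPKM or more were fitted as log2(FPKM + 1) with limma 3.58.1 in R 4.3.3, with an intensity trend, 3 KO against 3 WT libraries, without covariates. P-values were adjusted by the Benjamini-Hochberg method over all 10732 genes at a threshold of 0.05. The steps were tested on simulated data. Alternatives were pseudocounts of 0.1 and 5, no filter, a filter at 5 FPKM, 3 other scalings, no trend, a replicate block, each library left out, a core macrophage covariate and voom on the recovered reads. Values and figures were handled with Python 3.11.15, pandas 2.3.3 and matplotlib 3.10.9, gene positions came from GENCODE M21, and promoter windows from RefSeq.

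The members, classes and lists were chosen with earlier results of these data known. Genes were named by a rule: all past the adjusted threshold, in each class up to 3 higher and 2 lower with the smallest p among those without overlap, the most abundant, and the 3 on either side of 1 FPKM. A further 19 carriers, among them Slc7a8, Slc15a3, Slc16a10, Slc31a2, Slc48a1 and Slc3a2, were named after their values were seen, as were the genes named outside the Slc pattern. A few carriers that the rule names are not reported here.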

Additional observations from a re-analysis of the deposited data

How the results depend on the processing

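With 3 libraries a group and no carrier past the adjusted threshold, the values describe these libraries. The counts called were 0 higher and 0 lower under every setting except leaving out WT replicate 2. Over the 6 fits that leave out 1 library, limma called 0 to 7 carriers higher and 0 to 1 lower, 13 to 30 were higher and 4 to 18 lower at an unadjusted p under 0.05, 20 to 43 did not overlap on the higher side and 25 to 43 on the lower side, and the median log2 fold change was -0.03 to -0.0014, where fewer libraries make a gap between groups easier to meet. Same-numbered libraries did not deviate together (r = -0.208, -0.376 and 0.273 for numbers 1, 2 and 3), so the numbers were not taken as pairs. A replicate block gave 21 higher and 8 lower at the unadjusted threshold and 0 called, and KO replicate 1 correlated best with WT replicate 2 (r = 0.470).

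The filter at 5 FPKM, which leaves 100 carriers, gave 12 higher at the unadjusted threshold, 11 higher and 10 lower without overlap, and a median log2 fold change of 0.001. Median-of-ratios scaling gave 6 lower at the unadjusted threshold, 13 lower without overlap and a median of 0.04. Equal totals without mitochondrial and ribosomal protein genes gave a median of -0.08. The core macrophage covariate gave 10 higher and 4 lower at the unadjusted threshold, 2 and 1 of them shared with the fit without it. The cause of these shifts was not tested beyond the smaller gene number under the filter. Shares over all genes tested were not counted for the replicate block, the filter, the scalings or the covariate. For the fits that leave out 1 library, only the shares given earlier were counted. Counts without such a share only describe the carriers.

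Of 870 log2 fold changes of 52 named carriers under 17 settings, 826 kept their direction and side of the threshold, 8 crossed it and 36, from 23 carriers, changed sign. With the core macrophage covariate the sign changed for Slc12a4 (-0.09), Slc15a2 (0.03), Slc15a3 (-0.04), Slc15a4 (0.04), Slc23a1 (0.08), Slc25a37 (0.53), Slc25a5 (-0.19), Slc2a9 (-0.03), Slc31a1 (-0.34), Slc31a2 (-0.10), Slc35b1 (-0.08), Slc35f6 (-0.11), Slc38a2 (0.31), Slc39a7 (-0.33), Slc3a2 (-0.23), Slc48a1 (-0.38), Slc6a4 (-0.64), Slc7a1 (0.20), Slc7a8 (-0.27) and Slc9a8 (0.05). Median-of-ratios scaling did so for Slc25a37 (0.04) and Slc66a3 (0.07), quantile normalization for Slc25a5 (-0.02), and equal totals for Slc25a5 (-0.02), Slc29a3 (-0.04) and Slc39a7 (-0.01). Leaving out 1 library in turn gave -0.17 to 0.13 for Slc25a37, -0.13 to 0.0027 for Slc25a4, -0.07 to 0.12 for Slc29a3, -0.22 to 0.0031 for Slc38a2, -0.03 to 0.16 for Slc39a7 and -0.06 to 0.03 for Slc66a3. Of the carriers whose sign changed with the core macrophage covariate, only Slc25a37 had an unadjusted limma p under 0.05 in that fit, at 0.0068. Marker level and group cannot be told apart there. The cause was not tested.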
